A study of Mus musculus with 126 samples.

Results

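The BAF complex (the mammalian SWI/SNF chromatin remodeller) is assembled from subunits that exist as alternative paralogues, and 10 such genes were followed through a comparison of DNA methylation loss and histone deacetylase inhibition in mouse embryonic stem cells. The genes were taken by name from a table of 23420 genes: Smarca4, Smarcc1, Smarcd1, Actl6a and Arid1a as the subunits of the stem cell form, and Smarca2, Smarcc2, Smarcd3, Actl6b and Arid1b as their paralogues. All 10 were in the table, and 9 passed the filter on low counts. Actl6b did not pass it. The rule used gene names alone.

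The study asked how DNA methylation and histone acetylation each bear on where transcription factors bind, and its 8 RNA-seq libraries, 2 for each of 4 groups, are described here. J1 cells served as wild type. TKO cells lacked all of Dnmt1, Dnmt3a and Dnmt3b, the DNA methyltransferases. Cells of each genotype received 5 ng/µl trichostatin A (TSA), an inhibitor of histone deacetylases, or 0.0033% DMSO, its solvent, for 36 h. All were grown on gelatin in serum with leukemia inhibitory factor (LIF), so the 4 groups share these conditions. The labels name 1 line for each genotype, so line and genotype cannot be told apart. The series calls the 2 libraries of a group biological replicates, and whether they came from separate cultures is not said, so the p-values measure the spread between these libraries.

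BAF complexes use the energy of ATP to slide or evict nucleosomes. In embryonic stem cells the complex is built around the ATPase Smarca4 (Brg1) with Smarcc1, Smarcd1, Actl6a and Arid1a, and it is needed for self-renewal. During differentiation some of these are replaced or joined by paralogues: Smarca2 (Brm) is the other ATPase, Smarcc2 the other large scaffold, Smarcd3 the form of heart and muscle, Actl6b the form of neurons after they leave the cell cycle, and Arid1b the paralogue of the DNA-binding subunit Arid1a.

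Promoters are shown because the comparison concerns DNA methylation, whose substrate in mammals is mainly the CpG dinucleotide. The 250 bases before the RefSeq start (assembly GRCm38.p6) are given 5′ to 3′ on the gene's own strand, with every CpG in capitals. They are shown for Smarcd1, which was lower both in TKO and with TSA, and for its paralogue Smarcd3. Smarcd3 was called higher in TKO with DMSO but not with TSA. The others shown are Smarca2, which was higher with TSA, and Actl6b, whose counts were at or near 0. The windows are chr15:99702037-99702286 (plus strand) for Smarcd1, chr5:24602003-24602252 (minus strand) for Smarcd3, chr19:26604910-26605159 (plus strand) for Smarca2 and chr5:137553296-137553545 (plus strand) for Actl6b.
Smarcd1: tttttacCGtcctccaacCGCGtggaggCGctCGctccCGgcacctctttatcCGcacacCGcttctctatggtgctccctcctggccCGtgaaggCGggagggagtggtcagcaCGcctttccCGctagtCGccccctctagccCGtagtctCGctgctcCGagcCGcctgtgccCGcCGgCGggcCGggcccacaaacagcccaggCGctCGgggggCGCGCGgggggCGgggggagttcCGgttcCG
Smarcd3: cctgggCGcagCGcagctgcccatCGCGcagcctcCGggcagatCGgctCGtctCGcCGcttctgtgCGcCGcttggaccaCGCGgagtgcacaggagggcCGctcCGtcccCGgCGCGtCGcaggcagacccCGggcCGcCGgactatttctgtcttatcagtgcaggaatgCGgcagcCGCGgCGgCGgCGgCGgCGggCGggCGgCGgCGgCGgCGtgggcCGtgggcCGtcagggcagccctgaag
Smarca2: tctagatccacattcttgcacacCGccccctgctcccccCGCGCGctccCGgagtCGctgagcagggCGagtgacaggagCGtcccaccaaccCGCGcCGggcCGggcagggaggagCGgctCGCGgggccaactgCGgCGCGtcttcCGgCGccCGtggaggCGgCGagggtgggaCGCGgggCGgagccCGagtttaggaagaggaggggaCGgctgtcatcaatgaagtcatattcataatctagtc
Actl6b: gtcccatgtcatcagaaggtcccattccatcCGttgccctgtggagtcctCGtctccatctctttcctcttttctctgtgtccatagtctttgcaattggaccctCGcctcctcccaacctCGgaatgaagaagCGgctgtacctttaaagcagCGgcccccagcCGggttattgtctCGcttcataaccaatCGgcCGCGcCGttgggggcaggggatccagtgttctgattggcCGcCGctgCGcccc
These stretches hold 29, 38, 28 and 15 CpGs respectively. Over the full 300 bases, from 250 before to 50 after the start, the 11 promoters listed for the 10 genes held 21 to 48 CpGs, against a median of 7 over the 32851 promoters of the table. The fewest were at Actl6a, with 21, and the most at Smarcc2, with 48. All 10 genes therefore start in CpG-dense sequence, stem cell subunits and paralogues alike, and no methylation values were analysed here.

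The series also assayed binding of 5 transcription factors, and short core motifs of these were searched in the 300 bases on both strands. GCGCATGC, a core of the NRF1 motif, lay in 2.71% of all promoters and in those of Smarca4 (2 matches) and Smarcc1 (1 match). CCGGAAG, a core of the GABPA motif, lay in 8.86% of all promoters and in those of Smarcc1 (2 matches) and Smarca2 (1 match). AAGATGG, a core of the YY1 motif, lay in 6.34% of all promoters and in that of Smarcd1. GGGCGG, a core of the SP1 motif, lay in 35.7% of all promoters and in every listed promoter of the 10 genes. CACGTG, a core of the MAX motif, lay in 7.15% of all promoters and in none of these. The matches describe the sequence and do not show that a factor binds.

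Library totals ranged from 13280631 to 15542527 counts. Levels are in normalised CPM, a gene's counts relative to its library's total after scaling by a TMM factor. These factors were 0.929 to 0.955 in the DMSO libraries and 1.04 to 1.08 in the TSA libraries, and so differed with treatment. The knocked-out genes were lower in TKO than in wild type with DMSO, with log2 fold changes of -1.78 for Dnmt1, -3.00 for Dnmt3a and -3.72 for Dnmt3b (edgeR, all called). The summed level of 8 stem cell markers in wild type was 3293 to 3710 normalised CPM with DMSO and 1895 to 2124 with TSA, and in TKO it was 4143 to 4501 with DMSO and 1851 to 2174 with TSA. Stem cell markers were therefore present in all 4 groups and lower in sum with TSA. In each genotype 6 of the 8 were called lower with TSA, where 25.9% of all genes were in wild type and 27.9% in TKO. The part of these markers in the results on the BAF subunits was not tested.

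TSA lowered all 5 stem cell subunits in both genotypes and raised 1 paralogue, Smarca2. In wild type cells 1 of the 9 tested BAF genes was called higher (adjusted p under 0.05, edgeR quasi-likelihood test), where 27.0% of all 15822 genes were, and 7 were called lower, where 25.9% were. In TKO cells the counts were again 1 higher and 7 lower, against 30.8% and 27.9% of all genes. The median log2 fold change of the 9 was -0.52 in wild type and -0.89 in TKO, and that of all genes was 0.01 and 0.04. The paralogues did not move as a block: Smarca2 rose, Arid1b fell with its partner in both genotypes, Smarcd3 fell in TKO cells, and Smarcc2 was called lower in wild type. RNA was measured in bulk, so a smaller share of cells that express a gene and less RNA per cell cannot be told apart. With libraries scaled by total counts alone, the median of all genes moved to 0.22 in wild type and 0.19 in TKO. The split of all genes called then became 36.7% higher and 15.4% lower in wild type, and 37.3% and 20.6% in TKO. The BAF genes were then called 1 higher and 6 lower in wild type, and 1 higher and 7 lower in TKO.

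**Figure D1:**
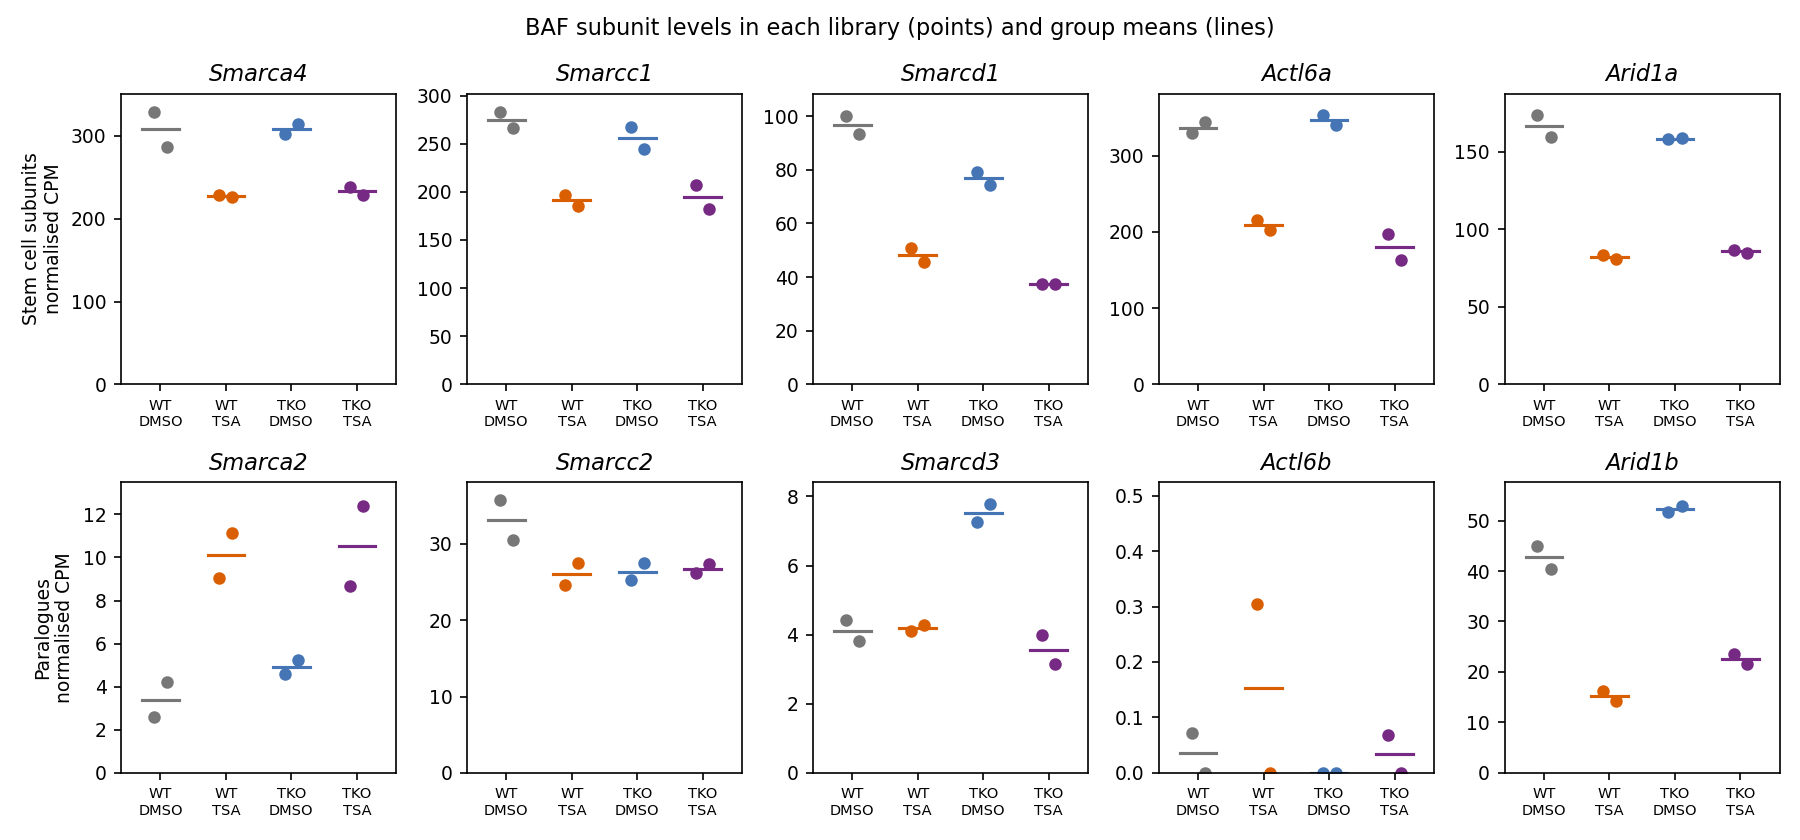
Normalised CPM of the 10 BAF genes (y axis of each panel, starting at 0 and with its own scale) in the 4 groups (x axis), with a point for each of the 2 libraries and a line for their mean; WT is wild type. All 5 stem cell subunits (upper row) sit lower in every TSA library than in every DMSO library, and of the paralogues (lower row) Smarca2 sits higher, at 8.66 to 12.4 against 2.57 to 5.24.

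The 2 ATPases moved in opposite directions with TSA. Values are given as replicate 1 and replicate 2. Smarca4, the ATPase of the stem cell complex (chr9:21616169-21704230, mm10), was at 329 and 287 normalised CPM with DMSO and 228 and 226 with TSA in wild type, and at 303 and 314 with DMSO and 238 and 229 with TSA in TKO. All 4 TSA libraries lay below all 4 DMSO libraries, and the genotypes overlapped with DMSO. TSA lowered it 1.36-fold in wild type (log2 fold change -0.44 ± 0.09 SE, edgeR adjusted p = 0.00226) and 1.32-fold in TKO (-0.40 ± 0.09, edgeR adjusted p = 0.00300). The difference between TKO and wild type with DMSO was 0.00 ± 0.09 on the log2 scale (edgeR adjusted p = 0.999).

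Smarca2, its paralogue (chr19:26605160-26778321), was at 2.57 and 4.21 normalised CPM with DMSO and 9.04 and 11.2 with TSA in wild type, and at 4.58 and 5.24 with DMSO and 8.66 and 12.4 with TSA in TKO. Every TSA library was above every DMSO library, and the wild type DMSO libraries were the lowest and spread the most for their level. TSA raised it 2.99-fold in wild type (1.58 ± 0.28 on the log2 scale, edgeR adjusted p = 0.000785) and 2.14-fold in TKO (1.10 ± 0.26, edgeR adjusted p = 0.00383). With DMSO the log2 difference of TKO from wild type was 0.54 ± 0.29, which was not called (edgeR adjusted p = 0.222) although the libraries did not overlap. With TSA the genotypes overlapped, at a difference of 0.06 ± 0.24.

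Per base of exon (RPKM, normalised CPM per kilobase of exon), Smarca2 stayed far below Smarca4. Its mean level in wild type was 0.557 RPKM with DMSO and 1.66 with TSA, where Smarca4 was at 48.3 and 35.7. The gain of 1.10 RPKM in Smarca2 was 8.68% of the 12.7 RPKM by which Smarca4 fell. In TKO cells Smarca2 gained 0.921 RPKM, which was 7.81% of the 11.8 RPKM lost by Smarca4. As a percentage of Smarca4 per length, Smarca2 was at 0.828 and 1.55 with DMSO and at 4.16 and 5.18 with TSA in wild type. In TKO it was at 1.60 and 1.76 with DMSO and at 3.83 and 5.68 with TSA. The share was 4.09-fold higher with TSA in wild type and 2.78-fold in TKO, with no overlap between treated and control libraries, and stayed below the level of Smarca4 throughout. An exact permutation test of 2 libraries against 2 cannot give a two-sided p under 0.333, which is the value it gave for both.

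**Figure D2:**
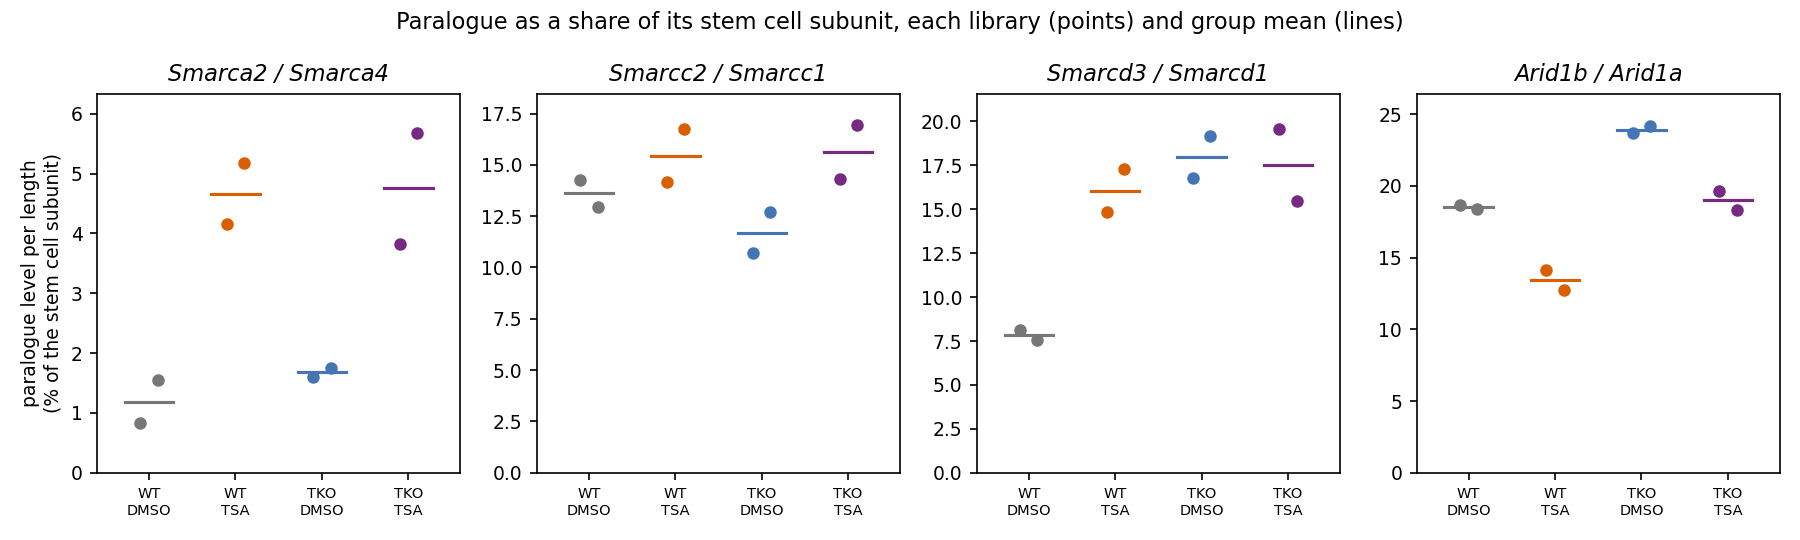
Level of each paralogue per length as a percentage of its stem cell partner (y axis, from 0, own scale in each panel) in each library (points) with group means (lines) for the 4 groups (x axis). Smarca2 against Smarca4 separates by treatment, Smarcd3 against Smarcd1 has wild type DMSO alone at the bottom, at 7.55% to 8.13%, and Arid1b against Arid1a is highest in TKO DMSO and lowest in wild type TSA.

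Of the scaffold subunits, which hold the core of the complex together, Smarcc1 fell with TSA. It was at 283 and 267 normalised CPM with DMSO and 197 and 185 with TSA in wild type, and at 267 and 244 with DMSO and 207 and 182 with TSA in TKO. The TSA libraries lay below the DMSO libraries in each genotype, with a log2 fold change of -0.52 ± 0.10 in wild type (edgeR adjusted p = 0.00110) and -0.39 ± 0.10 in TKO (edgeR adjusted p = 0.00468). Without TKO TSA replicate 2 the change in TKO was -0.31 and not called (edgeR adjusted p = 0.0513). Smarcc1 did not pass the test between genotypes, with log2 fold changes of -0.10 ± 0.10 with DMSO and 0.03 ± 0.10 with TSA.

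Smarcc2, the paralogue that joins the complex in differentiated cells, was at 35.8 and 30.6 normalised CPM with DMSO and 24.7 and 27.5 with TSA in wild type, and at 25.2 and 27.5 with DMSO and 26.2 and 27.3 with TSA in TKO. The wild type DMSO libraries were the highest, and the other 3 groups overlapped between 24.7 and 27.5. Its log2 fold change with TSA in wild type, -0.35 ± 0.13, was called (edgeR adjusted p = 0.0394), but 10 of 16 other settings did not call it, with edgeR adjusted p up to 0.381 under total-count scaling. Among these were the fits without wild type DMSO replicate 1 (edgeR adjusted p = 0.204), wild type TSA replicate 1 (0.203), wild type TSA replicate 2 (0.0674), either TKO DMSO library (0.0514 and 0.0521) and TKO TSA replicate 1 (0.0502). In TKO cells the change was 0.02 ± 0.13 (edgeR adjusted p = 0.888). As a percentage of Smarcc1 per length it was at 14.3 and 12.9 with DMSO and 14.1 and 16.8 with TSA in wild type, and at 10.7 and 12.7 with DMSO and 14.3 and 17.0 with TSA in TKO. This share overlapped between treated and control wild type libraries, and in TKO the TSA libraries were above the DMSO libraries, with a log2 difference of 0.42 (exact permutation p = 0.333).

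The Smarcd pair, which links the complex to transcription factors, was the one in which both genotype comparisons called a change. Smarcd1 (chr15:99702287-99713995) was at 100.2 and 93.2 normalised CPM with DMSO and 50.8 and 45.6 with TSA in wild type, and at 79.3 and 74.4 with DMSO and 37.5 and 37.4 with TSA in TKO. The 4 groups did not overlap, with wild type DMSO highest and TKO TSA lowest. TSA lowered it 2.01-fold in wild type (SE 0.10 on the log2 scale, edgeR adjusted p = 3.54e-05) and 2.05-fold in TKO (-1.04 ± 0.10, edgeR adjusted p = 1.42e-05). It was lower in TKO, with a log2 fold change of -0.33 ± 0.10 with DMSO (edgeR adjusted p = 0.0356) and -0.36 ± 0.10 with TSA (edgeR adjusted p = 0.0306). These genotype calls lay close to the threshold. With DMSO the call was lost without wild type DMSO replicate 1 (edgeR adjusted p = 0.139), TKO DMSO replicate 1 (0.100) or TKO DMSO replicate 2 (0.222). With TSA it was lost without wild type TSA replicate 1 (0.256), TKO DMSO replicate 1 (0.0516), TKO DMSO replicate 2 (0.0515), TKO TSA replicate 1 (0.103) or TKO TSA replicate 2 (0.136).

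Smarcd3 (chr5:24592622-24602002), the form known from heart and muscle, stood out in TKO cells without the inhibitor. It was at 4.43 and 3.81 normalised CPM with DMSO and 4.09 and 4.28 with TSA in wild type, and at 7.25 and 7.79 with DMSO and 3.99 and 3.14 with TSA in TKO. TKO DMSO was above the rest, and the other 3 groups lay between 3.14 and 4.43. It was 1.82-fold higher in TKO than in wild type with DMSO (log2 fold change 0.86 ± 0.22, edgeR adjusted p = 0.0189). TSA lowered it 2.11-fold in TKO (-1.08 ± 0.22, edgeR adjusted p = 0.00174), and in wild type the change was 0.02 ± 0.23 (edgeR adjusted p = 0.948). These comparisons share the TKO DMSO or wild type DMSO libraries. The difference between the 2 TSA effects, -1.10 ± 0.32 on the log2 scale, did not pass the interaction test (edgeR adjusted p = 0.133, unadjusted p = 0.00567), and its adjusted p ranged from 0.0674 to 0.377 over 15 other settings. The rise in TKO was not called without wild type DMSO replicate 1 (edgeR adjusted p = 0.0588), wild type DMSO replicate 2 (0.0742), TKO DMSO replicate 1 (0.0662) or TKO DMSO replicate 2 (0.109).

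Per length, Smarcd3 was at 8.13% and 7.55% of Smarcd1 with DMSO and 14.8% and 17.3% with TSA in wild type, and at 16.8% and 19.2% with DMSO and 19.6% and 15.5% with TSA in TKO. Wild type DMSO was below the other 3 groups, which overlapped. The share was 2.04-fold higher with TSA in wild type, where Smarcd1 fell and Smarcd3 changed by 0.02 on the log2 scale. It was 2.29-fold higher in TKO with DMSO, where Smarcd3 rose and Smarcd1 fell. In TKO cells TSA lowered both genes, and their ratio differed by -0.04 on the log2 scale.

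Actl6a, the actin-related subunit of proliferating cells, had the highest level per length of the 10 genes in every group. It was at 329 and 344 normalised CPM with DMSO and 215 and 203 with TSA in wild type, and at 354 and 340 with DMSO and 197 and 163 with TSA in TKO. The TSA libraries were below the DMSO libraries in both genotypes, and TKO TSA was the lowest group. TSA lowered it 1.61-fold in wild type (-0.69 ± 0.10 on the log2 scale, edgeR adjusted p = 0.000283) and 1.92-fold in TKO (-0.94 ± 0.10, edgeR adjusted p = 2.48e-05). The interaction, -0.26 ± 0.14, was not called (edgeR adjusted p = 0.451).

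Actl6b, the neuronal form that replaces Actl6a when neural progenitors stop dividing, was not detectable above the floor in 7 of the 8 libraries. Its counts were 1 and 0 with DMSO and 5 and 0 with TSA in wild type, and 0 and 0 with DMSO and 1 and 0 with TSA in TKO. A count of 0 allows up to 3 counts, or 0.183 to 0.243 normalised CPM by library. The 5 counts of wild type TSA replicate 1 were 0.305 normalised CPM and had no counterpart in replicate 2. No fold change is given for it. The interval behind such a count covers counting error only.

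Arid1a, the large DNA-binding subunit of the canonical complex (chr4:133679008-133753611), was at 174 and 159 normalised CPM with DMSO and 83.2 and 80.5 with TSA in wild type, and at 158 and 159 with DMSO and 86.8 and 84.6 with TSA in TKO. The 4 TSA libraries lay close together and far below the 4 DMSO libraries. TSA lowered it 2.03-fold in wild type (-1.02 ± 0.09 on the log2 scale, edgeR adjusted p = 1.70e-05) and 1.85-fold in TKO (-0.89 ± 0.09, edgeR adjusted p = 1.57e-05). Genotype gave -0.07 ± 0.09 with DMSO and 0.07 ± 0.09 with TSA, neither of them called.

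Arid1b (chr17:4995074-5347656) also fell with TSA. It was at 45.0 and 40.4 normalised CPM with DMSO and 16.2 and 14.2 with TSA in wild type, and at 51.8 and 53.0 with DMSO and 23.6 and 21.5 with TSA in TKO. The 4 groups did not overlap, and TKO was above wild type under each treatment. TSA lowered it 2.80-fold in wild type (-1.49 ± 0.13 on the log2 scale, edgeR adjusted p = 1.51e-05) and 2.32-fold in TKO (-1.22 ± 0.12, edgeR adjusted p = 1.57e-05). It was 1.48-fold higher in TKO than in wild type with TSA (0.56 ± 0.13, edgeR adjusted p = 0.0117), a call lost without wild type TSA replicate 2 (0.0812) or TKO TSA replicate 1 (0.0667). With DMSO the difference was 0.29 ± 0.12 (edgeR adjusted p = 0.104).

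As a percentage of Arid1a per length, Arid1b was at 18.7 and 18.4 with DMSO and 14.1 and 12.8 with TSA in wild type, and at 23.7 and 24.1 with DMSO and 19.7 and 18.3 with TSA in TKO. The share was lower with TSA in both genotypes, with a log2 difference of -0.46 in wild type and -0.33 in TKO. It was higher in TKO under both treatments, by 0.37 with DMSO and 0.50 with TSA. The libraries were apart in all 4 comparisons (exact permutation p = 0.333 in each, the smallest possible). With TSA the share of the paralogue was thus lower in the Arid1 pair and higher in the Smarca pair.

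**Figure D3:**
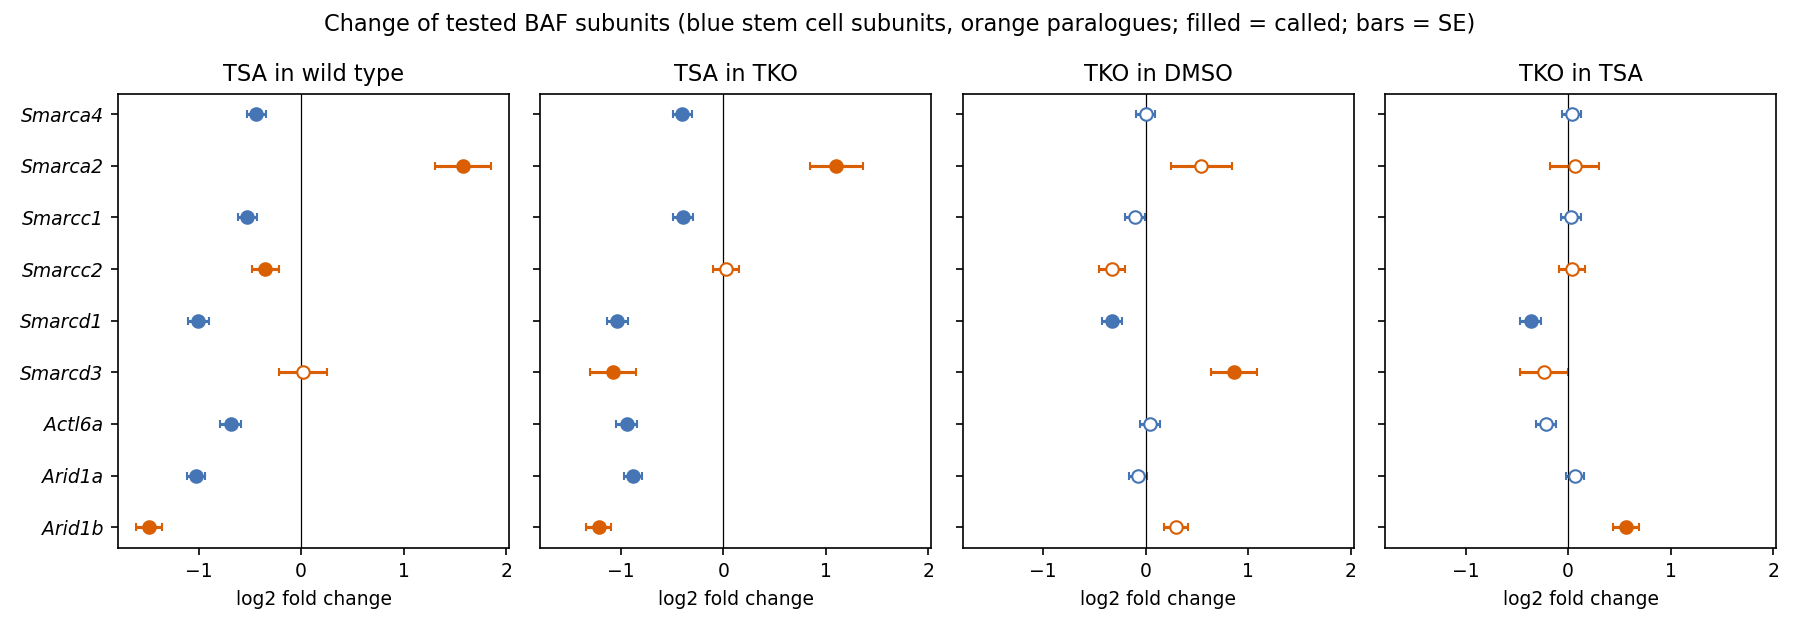
Log2 fold change (x axis) of the 9 tested BAF genes (y axis, each stem cell subunit in blue above its paralogue in orange; Actl6b was not tested) in 4 comparisons, with bars for the approximate SE and filled points where the edgeR adjusted p was under 0.05. In the TSA panels the stem cell subunits lie left of 0, from -0.39 to -1.04, with Smarca2 to the right, and in the TKO panels most points lie near 0.

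Loss of the methyltransferases alone called few of these genes. With DMSO, 1 of 9 was higher in TKO (Smarcd3) and 1 lower (Smarcd1), where 9.63% and 10.7% of all genes were. With TSA, 1 was higher (Arid1b) and 1 lower (Smarcd1), where 10.0% and 8.38% were. These shares are near those of all genes. With DMSO edgeR gave 2 higher and 2 lower at an unadjusted p under 0.05. Counts at an unadjusted p, here and below, are given without a share of all genes. DESeq2 called 0 of the 9 with DMSO, where it called 8.3% of all genes higher and 9.25% lower. The median log2 fold change was 0.00 with DMSO and 0.04 with TSA.

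TKO cells with TSA were also set against wild type cells with DMSO, which differ in both respects. Of the 9 genes 1 was higher and 6 were lower, where 31.7% and 30.2% of all genes were. Smarcd1 was lower by 2.58-fold (log2 fold change -1.37 ± 0.10, edgeR adjusted p = 2.36e-06), Arid1a by 1.94-fold and Actl6a by 1.87-fold. Arid1b was lower by 1.90-fold, Smarcc1 by 1.41-fold and Smarca4 by 1.32-fold. Smarca2 was higher by 3.12-fold (1.64 ± 0.27, edgeR adjusted p = 0.000376). Smarcc2 (-0.31 ± 0.13, edgeR adjusted p = 0.0547) and Smarcd3 (-0.21 ± 0.24, edgeR adjusted p = 0.451) were not called. This comparison shares its libraries with those above.

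No BAF gene passed the interaction test of whether TSA acted differently in the 2 genotypes, where 1.35% of all genes did. At an unadjusted p under 0.05 edgeR gave 1 of 9, Smarcd3. DESeq2 called 0 at its adjusted p, where it called 1.82% of all genes higher and 0.859% lower. For Smarca2 the interaction was -0.48 ± 0.38 on the log2 scale (edgeR adjusted p = 0.628), for Smarcc2 0.37 ± 0.18 (0.387) and for Arid1b 0.27 ± 0.17 (0.529).

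Ranked per length, the 5 stem cell subunits were above all 5 paralogues in every group. In wild type DMSO the means were 171 RPKM for Actl6a, 48.4 for Smarcc1, 48.3 for Smarca4, 30.7 for Smarcd1 and 20.4 for Arid1a. The libraries of Smarcc1 and Smarca4 overlapped there, and the other neighbours did not. The paralogues followed with 6.60 RPKM for Smarcc2, 3.77 for Arid1b, 2.39 for Smarcd3, 0.557 for Smarca2 and 0.023 for Actl6b. In wild type TSA Smarca2, at 1.66 RPKM, ranked above Arid1b, at 1.34, and no neighbours overlapped. In TKO DMSO Smarcd3, at 4.36 RPKM, lay next to Arid1b, at 4.63, without overlap. In TKO TSA Smarcd3 (2.07), Arid1b (1.99) and Smarca2 (1.73) could not be ordered, since neighbouring libraries overlapped, and the same held for Smarca4 and Smarcc1.

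The other 21 subunits of the BAF family, all of which were tested, were also mostly lower with TSA. With TSA in wild type edgeR called 0 higher and 15 lower, where 27.0% and 25.9% of all genes were. At an unadjusted p under 0.05 it gave 0 higher and 16 lower. DESeq2 called 0 higher and 14 lower, where it called 22.9% and 22.1% of all genes. In TKO edgeR called 1 higher and 12 lower, against 30.8% and 27.9% of all genes. The median log2 fold changes were -0.64 and -0.46. Between genotypes 1 was higher and 1 lower with DMSO, where 9.63% and 10.7% of all genes were, and 1 higher and 2 lower with TSA, where 10.0% and 8.38% were. The genotype counts are near or below the share of all genes. The decrease with TSA was therefore not limited to the 5 stem cell subunits above.

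Among subunits that are known to be exchanged, the Dpf family reads histone tails. Dpf2, the form found in stem cells, was at 94.9 and 79.5 normalised CPM with DMSO and 53.3 and 47.8 with TSA in wild type, and at 78.3 and 80.3 with DMSO and 46.6 and 42.9 with TSA in TKO. It fell with TSA, with a log2 fold change of -0.79 ± 0.11 in wild type (edgeR adjusted p = 0.000243) and -0.83 ± 0.11 in TKO (0.000120). Dpf1, its neuronal paralogue, was at 20.9 and 20.6 normalised CPM with DMSO and 17.6 and 14.3 with TSA in wild type, and at 32.6 and 27.2 with DMSO and 24.9 and 24.2 with TSA in TKO. It was higher in TKO under both treatments, by 0.53 ± 0.15 with DMSO (edgeR adjusted p = 0.0254) and 0.62 ± 0.15 with TSA (0.0146), and its log2 fold change with TSA was not called (-0.38 ± 0.15 in wild type, edgeR adjusted p = 0.0528). Without wild type TSA replicate 1 that fall was called (-0.54, 0.0364). With DMSO the call was lost without wild type DMSO replicate 1 (edgeR adjusted p = 0.0957), wild type DMSO replicate 2 (0.0633) or TKO DMSO replicate 1 (0.193). With TSA it was lost without wild type TSA replicate 2 (0.103), TKO TSA replicate 1 (0.0606) or TKO TSA replicate 2 (0.0578). Dpf3, the form known from heart and muscle, was near the floor, at 0.143 to 0.730 normalised CPM in the DMSO libraries, 0.611 and 0.883 in wild type TSA, and 1.29 and 1.76 in TKO TSA. It was called higher with TSA in TKO (log2 fold change 1.83 ± 0.58, edgeR adjusted p = 0.0180), but DESeq2 did not call it (1.85, DESeq2 adjusted p = 0.0717). The edgeR call was also lost without TKO DMSO replicate 1 (log2 fold change 1.37) or TKO TSA replicate 2 (1.58). In wild type the change was 0.81 ± 0.65 (0.318), and the difference between the genotypes in the TSA effect was not called (0.674).

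Phf10, a subunit of the PBAF form, had a log2 fold change with TSA of -0.50 ± 0.11 in wild type (edgeR adjusted p = 0.00351) and -0.28 ± 0.11 in TKO (0.0465). Both were called lower, and the call in TKO was lost under 10 of 16 other settings, with edgeR adjusted p up to 0.311. Among these were the fits without either wild type TSA library (0.0524 and 0.0546), either TKO DMSO library (0.0899 and 0.181) and either TKO TSA library (0.0920 and 0.163). Of its exon bases 11.4% overlap 1600012H06Rik, so reads there cannot be assigned with certainty. Ss18, the subunit of stem and progenitor cells, had means of 167 normalised CPM with DMSO and 143 with TSA in wild type, and 159 and 153 in TKO. Ss18l1, its neuronal paralogue (Crest), had means of 11.6 and 12.4 in wild type, and 11.2 and 13.8 in TKO. Replicate 1 of Ss18 was above replicate 2 in every group, at 182 and 153 normalised CPM with DMSO and 149 and 136 with TSA in wild type, and 174 and 143 with DMSO and 169 and 137 with TSA in TKO. With all libraries and no term for the replicate number, edgeR called neither gene in the 6 comparisons.

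Of the remaining subunits, 8 had the largest changes between TKO TSA and wild type DMSO. They were Bcl11a (log2 fold change -2.39 ± 0.43), Bcl11b (-1.80 ± 0.38), Bcl7a (-1.57 ± 0.18), Gltscr1l (-1.54 ± 0.12), Bcl7b (-1.41 ± 0.19), Smarcb1 (-1.35 ± 0.11), Arid2 (-1.24 ± 0.11) and Bcl7c (-1.17 ± 0.18). All 8 were lower. Smarcb1, a core subunit shared by the canonical forms, was at 117 and 114 normalised CPM with DMSO and 61.6 and 54.8 with TSA in wild type, and at 113 and 105 with DMSO and 49.5 and 41.1 with TSA in TKO. It fell with TSA in both genotypes, with log2 fold changes of -0.99 ± 0.11 (edgeR adjusted p = 6.32e-05) and -1.27 ± 0.11 (8.47e-06). Arid2, the PBAF counterpart of Arid1a and Arid1b, was at 188 and 180 normalised CPM with DMSO and 99.1 and 86.4 with TSA in wild type, and at 115 and 100.0 with DMSO and 83.1 and 73.0 with TSA in TKO. Wild type DMSO was the highest group, and Arid2 was lower in TKO than in wild type with DMSO (log2 fold change -0.77 ± 0.11, edgeR adjusted p = 0.000799). Bcl11a, a zinc finger protein found in neural and lymphoid BAF complexes, was at 3.78 and 4.54 normalised CPM with DMSO and 0.916 and 1.43 with TSA in wild type, and at 5.34 and 2.69 with DMSO and 0.947 and 0.628 with TSA in TKO.

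**Figure D4:**
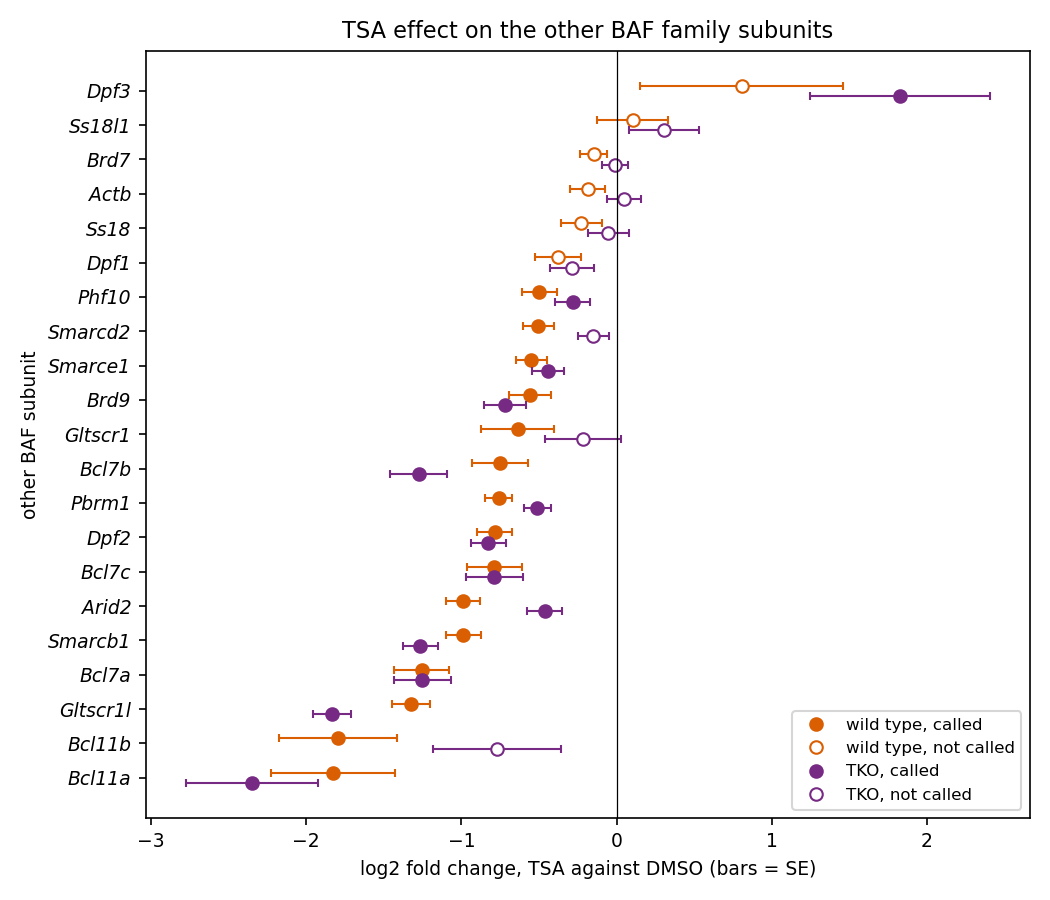
Log2 fold change of TSA against DMSO (x axis) of the other 21 BAF family subunits (y axis, ordered by the wild type value) in wild type (orange) and TKO (purple), with bars for the approximate SE and filled points where the edgeR adjusted p was under 0.05. Most points lie left of 0 in both genotypes, with 15 and 12 called lower, and Dpf3 in TKO is the filled point on the right.

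ATPases of other remodeller families gave a comparison from outside the BAF complex. Of 18 in the table, all tested, edgeR called 0 higher and 11 lower with TSA in wild type, where 27.0% and 25.9% of all genes were. At an unadjusted p under 0.05 it gave 2 higher and 11 lower. DESeq2 called 1 higher and 11 lower, where it called 22.9% and 22.1% of all genes. In TKO edgeR called 1 higher and 9 lower, against 30.8% and 27.9% of all genes. With total-count scaling the edgeR calls became 3 higher and 6 lower in wild type, where 36.7% and 15.4% of all genes were. In TKO they became 2 higher and 7 lower, against 37.3% and 20.6% of all genes. TKO against wild type gave 2 called higher and 0 lower with DMSO, where 2 higher and 3 lower had an unadjusted p under 0.05. DESeq2 called 2 higher and 1 lower there, where it called 8.3% and 9.25% of all genes. With TSA edgeR called 2 higher and 1 lower. Of all genes 9.63% were higher and 10.7% lower with DMSO, and 10.0% and 8.38% with TSA, so the genotype counts are near or below the share of all genes. The largest changes between TKO TSA and wild type DMSO were at Chd5 (-1.04 ± 0.27), Chd2 (-1.01 ± 0.10) and Ep400 (0.96 ± 0.15), all called by edgeR. Ep400, the ATPase of an acetyltransferase complex, was thus higher while the remodellers Chd2 and Chd5 were lower.

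A set of 4 known regulators of the neural exchange was read beside the subunits. Rest, the repressor that keeps neuronal genes silent outside neurons, had means of 513 normalised CPM with DMSO and 195 with TSA in wild type, and 460 and 161 in TKO. It fell with TSA, with a log2 fold change of -1.39 ± 0.12 in wild type (edgeR adjusted p = 1.47e-05) and -1.51 ± 0.12 in TKO (4.04e-06). Rcor1, its corepressor, passed the test in TKO, where TSA raised it (0.46 ± 0.15, edgeR adjusted p = 0.0224), though not without TKO DMSO replicate 1 (0.207) or TKO TSA replicate 2 (0.121), and was at 0.06 ± 0.15 in wild type. Ptbp1 and Ptbp2 are splicing regulators whose decline accompanies neuronal maturation. Ptbp1 fell with TSA, with log2 fold changes of -0.58 ± 0.12 in wild type and -0.61 ± 0.12 in TKO. Ptbp2, with means of 116 and 36.0 in wild type and 72.8 and 26.4 in TKO, fell in wild type (-1.69 ± 0.10, edgeR adjusted p = 2.79e-06) and in TKO (-1.46 ± 0.10, 2.32e-06). Of the subunits of this exchange, Actl6a was lower with TSA in both genotypes and Actl6b was at or near 0. Ss18 and Ss18l1 were not called in the main fit. Any relation of the 4 regulators to these subunits was not tested.

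Markers of cells that carry the paralogues were also measured. The summed level of 8 neuron markers in wild type was 405 to 419 normalised CPM with DMSO and 216 to 259 with TSA, and in TKO it was 438 to 439 and 159 to 175. In each genotype 2 of the 7 tested neuron markers were called higher with TSA and 2 lower. The 4 neural progenitor markers summed to 152 to 239 and 65.9 to 85.3 in wild type, and 88.4 to 109 and 74.8 to 76.6 in TKO, with 3 of 3 tested called lower in wild type and 2 of 3 in TKO. The 8 muscle markers summed to 32.0 to 35.1 and 59.6 to 61.2 in wild type, and 36.0 to 38.9 and 65.5 to 69.8 in TKO, with 2 of 6 tested called higher and 1 lower in each genotype. The 8 fibroblast markers summed to 38.5 to 45.1 and 80.4 to 96.2 in wild type, and to 11.0 in both DMSO libraries and 36.4 to 54.5 with TSA in TKO. Of 7 tested, 4 were called higher and 1 lower in wild type, and 7 higher in TKO. Of all genes 27.0% were called higher and 25.9% lower with TSA in wild type, and 30.8% and 27.9% in TKO. Calls among the neuron and muscle markers were near these shares. The muscle and fibroblast sums were higher with TSA. No marker was at 0 in all 8 libraries, and the fibroblast marker Dcn was at 0 in both TKO TSA libraries. Their part in the changes of the BAF subunits was not tested.

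Genes with the most similar pattern were taken for the BAF genes with the largest rise and the largest fall between TKO TSA and wild type DMSO, by Pearson's r of log2 normalised CPM over the 8 libraries, among 14420 other genes. These are descriptions, since the points share libraries and fall into treated and untreated sets. For Smarca2 they were Myl4 (r = 0.989), Hydin (r = 0.989) and Osbpl6 (r = 0.988). Hydin in wild type was at a mean of 4.47 normalised CPM with DMSO and 27.4 with TSA. For Smarcd1 they were Wdr74 (r = 0.997), Tnrc6a (r = 0.996) and Cpsf7 (r = 0.996). Wdr74 was at 169 and 80.6 in the same groups.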

How the data were processed

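RNA was measured by sequencing in 8 libraries of mouse embryonic stem cells, 2 for each of 4 groups, grouped by the sample titles. The other 118 samples of the series were not analysed here. The authors deposited whole-number read counts per gene, not normalised, with the summed exon length of each gene in bases. Per the submitters' processing notes, TopHat2 2.0.13, featureCounts 1.4.5-p1, edgeR 3.22.3 and the build mm10 were used, with no roles stated. Strand setting, annotation and treatment of multi-mapping reads are not given in the sources used here. Among the 10 BAF genes, exons overlapped another gene only at 6 bases of Smarca2.

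Counts were tested in edgeR 4.0.16 (R 4.3.3) with filterByExpr, TMM factors and the quasi-likelihood F test, two-sided, over the 8 libraries together. Of 23420 genes 15822 were tested, and p-values were adjusted over all of them by Benjamini-Hochberg. Calls were made at adjusted p under 0.05. Standard errors were derived from the log2 fold change and its F statistic and are approximate. RPKM is normalised CPM per kilobase of exon. Ratios of paralogues used a prior of 0.5 counts. The planned ratio of Actl6b to Actl6a was not computed, since Actl6b had at most 5 counts.

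The depth of 13280631 to 15542527 counts per library puts 3 counts at 0.183 to 0.243 normalised CPM. Intervals and floors cover counting error only. Replicates of a group differed by more than counting noise (chi-square per degree of freedom of 5.28 to 12.2). Each was entered as a library of its own, and this spread does not show that they came from separate cultures.

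The BAF genes were named throughout. Of the other subunits, the exchanged ones were always named, and the 8 with the largest change between TKO TSA and wild type DMSO among those called at a mean of at least 1 CPM. Up to 3 other ATPases were named by the same rule. The genes and lists were chosen with earlier results of these data known. Alternatives were scaling by total counts, upper quartile or RLE, DESeq2 1.42.0, other filters, the compared groups only, a replicate block, and leaving out each library.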

Additional observations from a re-analysis of the deposited data

How the results depend on the processing

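With 9 genes in 6 comparisons there were 54 results for the BAF genes. Of these, 46 kept their side of the threshold under all alternatives run, 6 lost a call under at least 1 and 2 gained a call. Of the results called in the main fit or in the alternative, 0 reversed direction. Results called in neither could change sign. For Smarca4 in TKO against wild type with DMSO the log2 fold change ranged from -0.10 to 0.09. The number of BAF genes called in TKO against wild type with DMSO, 2, became 0 with DESeq2, 1 with only the compared groups in the fit and 1 with no filter on low counts. It ranged from 0 to 2 when each library was left out in turn, and the count with TSA, also 2, ranged from 0 to 2. The cause was not tested. The calls gained were of Smarcc2. In TKO against wild type with DMSO it was called lower without wild type DMSO replicate 2 (log2 fold change -0.44, edgeR adjusted p = 0.0479). In TKO TSA against wild type DMSO it was called lower under the replicate block (-0.31, edgeR adjusted p = 0.0422) and without wild type DMSO replicate 2 (-0.42, 0.0240). With the replicate block 8 BAF genes were called in that comparison in place of 7, and the counts of 8, 8, 2, 2 and 0 in the other comparisons were the same. Same-numbered libraries correlated in their deviations from the group means by 0.0586 to 0.366, positive for all 6 pairs of groups. The labels do not say what a replicate number marks, and with 2 libraries a group the numbers were not taken as pairs. Over all genes the block moved the interaction calls from 213 to 633, and it called Ss18 (log2 fold change -0.22, edgeR adjusted p = 0.0374) and Dpf1 (-0.38, 0.0255) lower with TSA in wild type. No ratio of paralogues whose groups were apart changed direction with a prior of 2 counts. Where the libraries of the groups do not overlap, leaving out a library cannot reverse their difference, so those fits do not test the direction. Ratios whose groups overlapped could change direction.

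Limits are few libraries, low counts and the scaling. With 2 libraries a group, exact permutation cannot reach a p under 0.333. Smarca2, Smarcd3 and Dpf3 rest on few counts, and Actl6b is at the floor. TMM factors differ with treatment, so the size of each TSA effect depends on the scaling, although no called BAF gene changed direction under any of the scalings run.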
